A study of Mus musculus with 2 samples.

Results

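The genes described here were the interleukins and interleukin receptors of the mouse, taken as the protein-coding genes whose symbol starts with Il and a digit, leaving out Il7r, Il2ra and Il2rg. This gave 79 of 21938 protein-coding genes in the annotation. A gene with the letter r after the number was placed in the receptor class (38 genes) and the others in the ligand class (41 genes). The symbol is only a guide to function. Il1rn, the secreted antagonist of IL-1, falls in the receptor class, and Il6st (the shared receptor chain gp130), Il18bp (a secreted IL-18 binding protein) and Il4i1 (an amino acid oxidase) fall in the ligand class. By function there were 38 receptor genes and 39 ligand or antagonist genes, with Il4i1 and Il18bp in neither set.

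Accessible chromatin was mapped by DNase-seq in whole thymus of 2 female B6CASTF1/J mice aged 25 days, with 1 library per animal. B6CASTF1/J is the first-generation hybrid of a C57BL/6J and a CAST mouse, and no other genotype, treatment or age was given. The 2 libraries formed 1 group, so the study holds no contrast between conditions, and values are given as replicate 1 and then replicate 2. Thymus is a mixture of cells. A site open in few cells and a site weakly open in many cells cannot be told apart.

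Interleukins are secreted signals between immune and tissue cells, and their receptors are mostly assembled from a private chain and a chain shared within a family. Most families signal through Janus kinases and STAT factors, while the IL-1, IL-18 and IL-17 families use MyD88-type or Act1-type adaptors. In the thymus, developing T cells receive IL-7 and other signals from stromal cells, and many interleukin genes are known to open only after a mature T cell or a myeloid cell is activated.

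DNase I cuts accessible DNA, and a peak is a stretch of dense cutting. Its density is the authors' own value, on a scaling that the sources do not state. The density therefore describes a peak within its own list, together with its percentile, the share of peaks of that list with a density no higher. A footprint is a short protected stretch that can mark bound protein, though binding was not measured. A promoter was the 1 kb on each side of a gene's start and was called open when at least 1 peak touched it and closed otherwise, which says only that no peak was listed there. A territory was the whole gene plus 10 kb of flank at either end.

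The lists held 127552 peaks in replicate 1 and 67270 in replicate 2, and 363775 and 203939 footprints. Read depth is unknown from these files, so no counting interval can be given, and the shorter lists of replicate 2 limit what can be seen there. All 12 thymocyte marker genes had an open promoter in both libraries. So did 3 of 8 thymic epithelial, 3 of 8 myeloid and dendritic, 2 of 7 B cell, 2 of 5 stromal, 2 of 4 endothelial and 3 of 5 natural killer and innate lymphoid markers, and 0 of 6 mast cell and granulocyte markers. Among all protein-coding genes 54.4% were open in both libraries. The counts other than those of thymocytes therefore do not show which of these cells were present.

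The sites with the highest mean percentile over both libraries are printed first, on build mm10 (GRCm38) and on the strand of the named gene, 5′ to 3′. Capitals mark bases inside footprints of both libraries. Bases of annotated untranslated regions were left out. The first 3 are the highest-ranking promoter peaks with at most 1 taken per gene. A second Il4i1 peak (percentiles 99.7 and 98.3) is therefore not printed. The 3 printed peaks belong to Il4i1, Il1rap (the signalling co-receptor of the IL-1 family) and Il3ra (the ligand-binding chain of the IL-3 receptor). They lie at chr7:44815681-44815900 (+ strand), chr16:26581561-26581703 (+ strand) and chr14:14345521-14345740 (+ strand).
Il4i1 promoter: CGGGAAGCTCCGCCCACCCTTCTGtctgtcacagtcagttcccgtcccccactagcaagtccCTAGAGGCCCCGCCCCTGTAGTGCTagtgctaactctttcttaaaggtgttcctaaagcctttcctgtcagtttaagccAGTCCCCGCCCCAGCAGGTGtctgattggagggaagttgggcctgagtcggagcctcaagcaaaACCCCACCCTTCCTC
Il1rap promoter: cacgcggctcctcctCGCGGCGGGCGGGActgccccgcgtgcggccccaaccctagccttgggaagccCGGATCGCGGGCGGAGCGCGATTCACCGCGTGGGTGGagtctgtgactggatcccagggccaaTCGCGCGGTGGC
Il3ra promoter: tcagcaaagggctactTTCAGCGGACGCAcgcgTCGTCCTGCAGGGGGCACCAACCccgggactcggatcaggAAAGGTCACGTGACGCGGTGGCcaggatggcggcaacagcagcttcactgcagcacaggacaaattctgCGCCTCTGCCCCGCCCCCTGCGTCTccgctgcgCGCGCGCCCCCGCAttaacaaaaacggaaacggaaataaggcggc

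The Il4i1 site was centred at position -596 from the gene's start (in bp, upstream negative), in an intron of an Atf5 transcript, and touched the promoters of Atf5 and Nup62 as well. Its density was 27.9 and 26.7. The Il1rap peak ran into the first exon, and the printed part is the sequence upstream of the start. The Il3ra site was centred at -644 from the start, in an intron of the transcript Gm48860. Shared footprints covered 84, 63 and 97 of the printed bases, and the Il1rap and Il3ra sequences held 20 and 23 CpG dinucleotides.

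The next 3 are the highest-ranking sites that touched no promoter: 1 in the 3′ flank of Il21r, 1 in an intron of Il31ra and 1 in an intron of Il4ra. They lie at chr7:125635561-125635780 (+ strand), chr13:112578161-112578320 (− strand) and chr7:125556881-125557100 (+ strand).
Il21r flank: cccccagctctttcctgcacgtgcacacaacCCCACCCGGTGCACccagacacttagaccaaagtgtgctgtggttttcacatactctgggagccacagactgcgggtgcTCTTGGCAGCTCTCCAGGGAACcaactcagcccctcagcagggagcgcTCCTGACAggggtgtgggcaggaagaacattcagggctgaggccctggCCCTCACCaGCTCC
Il31ra intron: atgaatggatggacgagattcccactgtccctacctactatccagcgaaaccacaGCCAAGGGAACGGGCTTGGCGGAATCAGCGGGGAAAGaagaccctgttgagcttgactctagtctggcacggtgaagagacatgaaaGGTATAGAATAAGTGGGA
Il4ra intron: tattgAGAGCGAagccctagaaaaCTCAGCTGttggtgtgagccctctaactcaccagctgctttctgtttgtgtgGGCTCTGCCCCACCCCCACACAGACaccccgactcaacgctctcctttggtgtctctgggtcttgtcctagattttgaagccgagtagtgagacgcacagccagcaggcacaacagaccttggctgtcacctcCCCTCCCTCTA

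The Il21r site, 32242 bp beyond that gene's start, had a density of 15.0 and 19.9 (percentiles 96.0 and 98.4). The Il4ra intron site, 4.87 kb beyond the start, had 12.7 and 18.5. Both stood in the top few percent of their lists in both animals. The Il31ra site had a density of 45.6 in replicate 1 and 9.78 in replicate 2 (percentiles 99.9 and 93.6). Of 5 words of 31 bases taken along it, 3 occurred more than once on the assembled chromosomes, at most 9 times, whereas all such words of the other printed sites occurred once. How reads with several matches were treated is not given in the sources used here, and its part in the density was not tested.

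The printed sites were searched on both strands for 10 motifs, named where they were found. The RUNX word TGTGGT was found in the Il21r and Il31ra sites, outside shared footprints, and the E-box word CAGCTG was found in the Il4ra site, where 1 copy lies inside a shared footprint. These are matches of letters and do not show a bound factor. The letters are those of the mm10 assembly, and the CAST alleles of these hybrid mice were not examined. In 200 bp windows on peaks that touched no promoter, TGTGGT was present in 21.7% and 23.2% of all windows and CAGCTG in 18.1% and 22.3%.

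Receptor genes had open promoters more often than ligand genes in both libraries. Of the 38 genes of the receptor class, 25 and 23 had a promoter peak, with 23 (60.5%) open in both. Of the 41 of the ligand class, 14 and 12 did, with 12 (29.3%) open in both. Among all protein-coding genes the shares were 61.7% in replicate 1, 55.1% in replicate 2 and 54.4% in both. The receptor class thus lay close to the background and the ligand class below it, which is a description of the counts and not a test. By function the split was wider, with 24 of 38 receptor genes and 10 of 39 ligand genes open in both.

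Of the 79 genes, 35 were open in both libraries, 40 in neither and 4 in replicate 1 only. Those 4 were Il22ra2, a soluble decoy receptor for IL-22 (density 0.963), Il1r1, the signalling receptor of IL-1 (0.222), Il12a, a chain of IL-12 (0.852), and Il19, an IL-10 family cytokine (0.323). The Il1r1 and Il19 peaks were weak (percentiles 7.44 and 17.9), the Il22ra2 and Il12a peaks were near the middle of the list (54.7 and 51.1), and replicate 2 has the shorter list. None was open in replicate 2 only. No promoter that lacked a peak held a base listed as significant (false discovery rate below 0.05) in the same library. Among all 21938 genes, 13527 and 12085 had a promoter peak. Promoters that lacked a peak but held such a base numbered 233 and 259.

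Open promoters of this set were less dense than the median open promoter. The median density of the densest promoter peak was 3.01 and 2.06 for open receptor genes and 1.13 and 0.672 for open ligand genes, against 9.43 and 5.56 for all open genes. The median percentiles were 79.6 and 71.6 for receptors, 57.8 and 37.1 for ligands, and 92.8 and 87.4 for all. Promoter footprints were found at 25 and 22 receptor genes, 22 in both, and at 14 and 9 ligand genes, 9 in both. The shares of all genes with a promoter footprint were 59.7%, 54.0% and 53.4% in both.

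**Figure D1:**
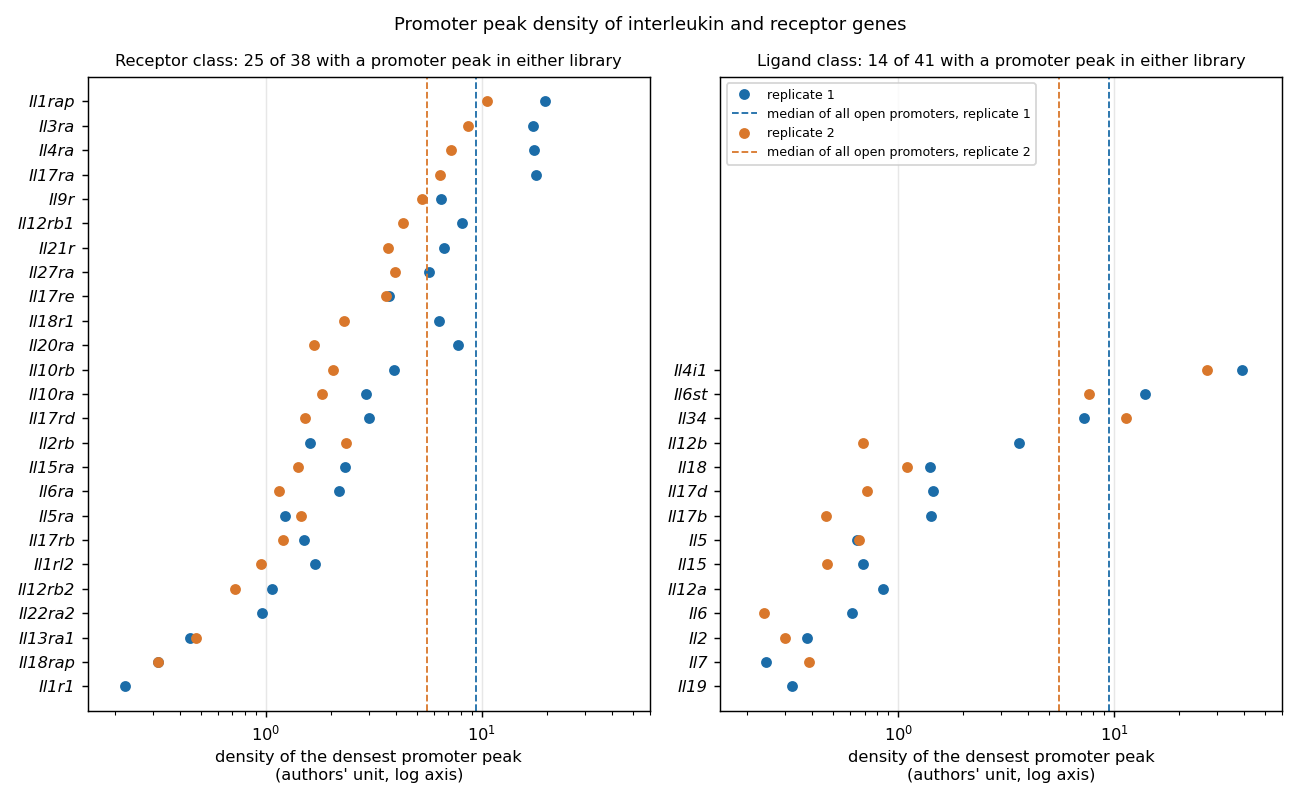
Density of the densest promoter peak (authors' unit, log axis) for each gene with a promoter peak in either library, receptor class left and ligand class right, with 1 point per library and dashed lines at the median of all open promoters (9.43 and 5.56). Most points lie left of their library's line, and Il1rap, Il3ra, Il4ra, Il17ra, Il4i1 and Il6st lie right of it in both libraries.

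The common gamma chain family serves mainly lymphocytes and the common beta chain family mainly myeloid cells. Of the receptor genes of both families in this set, 8 of 9 were open in both libraries, against 54.4% of all genes. This count holds neither common chain. Il2rg, Il7r and Il2ra were left out of the set, and the beta chain genes Csf2rb and Csf2rb2 were listed among the signalling partners. Csf2rb had a promoter peak in replicate 1 only (density 0.249), and Csf2rb2 had none in either library. Il4ra, the chain shared by the IL-4 and IL-13 receptors, had a density of 17.4 and 7.25. Il3ra had 17.4 and 8.64, and bases with a false discovery rate below 0.05 filled 2001 and 1909 of the 2001 bases of its promoter. These were among the densest promoters of the set in both animals. Il9r, the IL-9 receptor chain, had 6.47 and 5.28, and Il21r, the IL-21 receptor chain, had 6.69 and 3.69. Il2rb, which transduces IL-2 and IL-15, had 1.60 and 2.36, and Il15ra, which presents IL-15 to neighbouring cells, had 2.32 and 1.42. Il5ra, the IL-5 binding chain of eosinophils and B-1 cells, had 1.23 and 1.46, and Il13ra1 had 0.444 and 0.474. The decoy receptor Il13ra2 was the member of this family with no promoter peak and no territory peak in either library.

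Their ligands were open in 4 of 9 genes, all at low density. Il5, which drives eosinophils, had 0.645 and 0.660, and Il15 had 0.682 and 0.468. Il2, the growth factor of activated T cells, had 0.376 and 0.2999, and Il7, the stromal survival factor of thymocytes, had 0.243 and 0.384. The Il5 peaks were centred at -893 and -943 bp from the start, and the Il7 peaks 799 and 809 bp past it. The percentiles of these 4 genes ran from 8.08 to 44.01, so all lay in the lower part of the lists in both animals. No promoter peak was found at Il3, Il4, Il9, Il13 or Il21.

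In the gp130 family, 3 of 6 receptor genes were open in both libraries. Il6st itself had a density of 13.8 and 7.59, Il27ra, which pairs with gp130 to bind IL-27, had 5.68 and 3.98, and Il6ra had 2.17 and 1.15. Il6ra also held a site inside the gene of 9.12 and 11.1, denser than its promoter in both animals. Il11ra1, Il11ra2 and Il31ra had no peak at the 5′ end of the gene. All 10 words of 31 bases taken along the Il11ra1 promoter occurred 3 times on the assembled chromosomes, as did all 10 from its near-identical copy Il11ra2, so peaks in these windows could be missed and the absence of a peak there is uncertain. Of the 4 ligands, Il6 was open in both (0.608 and 0.240), while Il11, Il27 and Il31 were not.

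Both chains of the IL-12 receptor were open in both libraries. Il12rb1, shared with the IL-23 receptor, had 8.08 and 4.34 at a peak centred 1062 bp past the start, and a further site in its upstream flank had 10.3 and 10.6. Il12rb2, the inducible chain, had 1.07 and 0.720. Il23r, the private chain of the IL-23 receptor, had no promoter peak but held 13 and 3 territory peaks, the densest 2.33 and 3.48 in the flank beyond its 3′ end. Among the ligand chains, Il12b had 3.63 and 0.684 at a site centred at -912 and -922 bp from the start, Il12a is given above, and Il23a had no promoter peak.

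The IL-1 and IL-18 family had 4 of 9 receptor-side genes open in both libraries. Il1rap had the densest promoter of the receptor class, 19.7 and 10.6. Il18r1, the IL-18 binding chain, had 6.32 and 2.30, Il1rl2, the IL-36 receptor, had 1.69 and 0.954, and Il18rap, the second IL-18 receptor chain, had 0.317 and 0.318. Il1rl1, the IL-33 receptor, and Il1r2, the IL-1 decoy, had no peak at the 5′ end of the gene. Il1r2 had peaks of 3.597 and 1.488 at another annotated start. Of the 10 ligand genes of the family, Il18 alone was open in both (1.41 and 1.09), and its start lies within 1 kb of another gene's start. Il1a, Il1b, Il1rn, Il33 and the IL-36 and IL-38 genes Il1f5, Il1f6, Il1f8, Il1f9 and Il1f10 were closed in both. Il1rapl1 and Il1rapl2, which organise synapses in neurons, were closed, with 6 and 7 and with 7 and 3 peaks in territories of 1395 and 1296 kb.

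In the IL-10 family, 3 of 6 receptor genes and 0 of 5 ligand genes were open in both. Il10rb, shared by the receptors of IL-10 and IL-22, had 3.91 and 2.06 and held 15 and 16 promoter footprints. Il10ra, the IL-10 binding chain, had 2.92 and 1.83. Il20ra had 7.76 in replicate 1 and 1.67 in replicate 2, percentiles 91.2 and 67.2. Il20rb and Il22ra1 had no peak at the 5′ end. Il10, the inhibitory cytokine of regulatory cells, had no promoter peak but 2 territory peaks in each library, both inside the gene (0.820 and 0.815 in replicate 1, 0.636 and 0.774 in replicate 2).

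The IL-17 family had 4 of 5 receptor genes open in both libraries and 2 of 6 ligands. Il17ra, the shared chain, had 17.8 and 6.44, Il17re, which binds IL-17C, had 3.71 and 3.62, Il17rd had 3.01 and 1.52, and Il17rb, which binds IL-25, had 1.502 and 1.206. The ligands Il17d and Il17b had 1.45 and 0.714, and 1.42 and 0.462. The Il17d peaks were centred 844 and 814 bp past the start. The T cell cytokines Il17a and Il17f and the epithelial Il17c and Il25 were closed, as was Il17rc, a chain of the IL-17A receptor. Among genes outside these families, Il34, a ligand of the CSF1 receptor, had 7.21 and 11.3, denser in both animals than any ligand of the other families. Il4i1 had the densest promoter of all 79 genes, 39.0 and 26.7, at 2 neighbouring peaks near a start it shares with Nup62 and Atf5, which cannot be assigned to 1 of these genes.

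The gene start chosen matters for a few genes. When any annotated transcript start was allowed, 42 of the 79 genes (53.2%) were open in both libraries, against 59.0% of all genes. Il16, a ligand of CD4 with a long and a short form, had no peak at its 5′ end but 9.45 and 10.9 at an internal start. At other starts Il11ra1 had 2.84 and 1.63, and Il1r1 had 0.397 and 0.2999. Il1r2 is given above, Il20rb had 1.82 and 1.69, Il12a had 2.42 and 1.39, and Il11 had 0.994 and 0.726. Starts within 1 kb of another gene's start were found for 5 members (Il17rb, Il4i1, Il18, Il11 and Il31), against 12.6% of all genes.

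CpG content separated the open from the closed only in part. CpG-rich here means that the 1 kb centred on the start had at least 50% G and C and at least 0.6 of the CpG dinucleotides its base composition predicts. Only 10 of the 79 promoters were CpG-rich, against 44.4% of all genes, and the median ratio of observed to predicted CpG was 0.256 against 0.553. All 10 were open in both libraries (Il1rap, Il3ra, Il4ra, Il6ra, Il17ra, Il17rb, Il17rd, Il4i1, Il6st and Il17d), against 88.4% of CpG-rich genes. Among the CpG-poor promoters, 16 of 31 receptor genes (51.6%) and 9 of 38 ligand genes (23.7%) were open in both, against 27.3% of all CpG-poor genes. The difference in count between the classes was thus present within CpG-poor promoters as well.

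**Figure D2:**
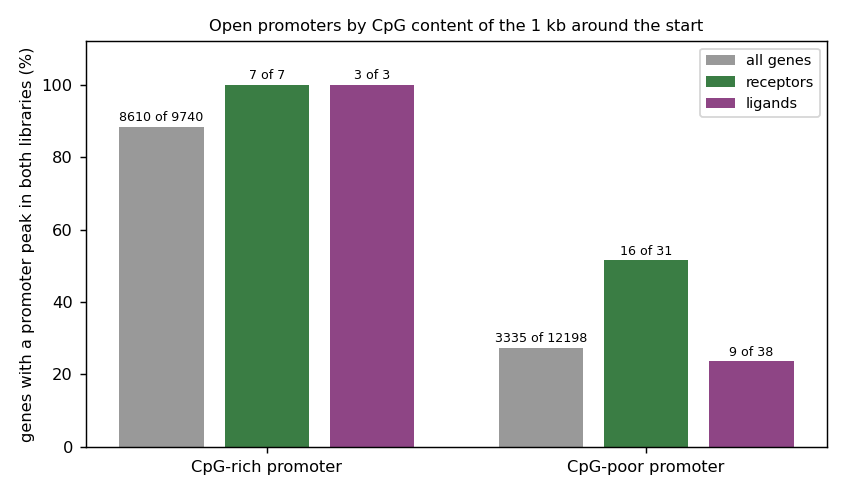
Share of genes with a promoter peak in both libraries (%), for CpG-rich and CpG-poor promoters, with all genes in grey, the receptor class in green and the ligand class in purple, and the counts above the bars. Among CpG-poor promoters the receptor bar stands at 51.6% and the ligand bar at 23.7%, beside 27.3% for all genes.

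Territories of receptor genes held more peaks than those of ligand genes. The median was 6.5 and 4 peaks for the receptor class (mean of the libraries 5.25 ± 1.77, SD, n = 2) and 3 and 1 for the ligand class (2 ± 1.41), against 4 and 2 for all genes. Receptor territories were also longer, with a median of 52.7 kb against 27.4 kb for ligands and 37.4 kb for all. Per 10 kb of territory the medians were 1.14 and 0.595 for receptors, 0.884 and 0.372 for ligands, and 0.862 and 0.422 for all genes. Per length, the ligand class was therefore near the median gene and the receptor class above it.

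**Figure D3:**
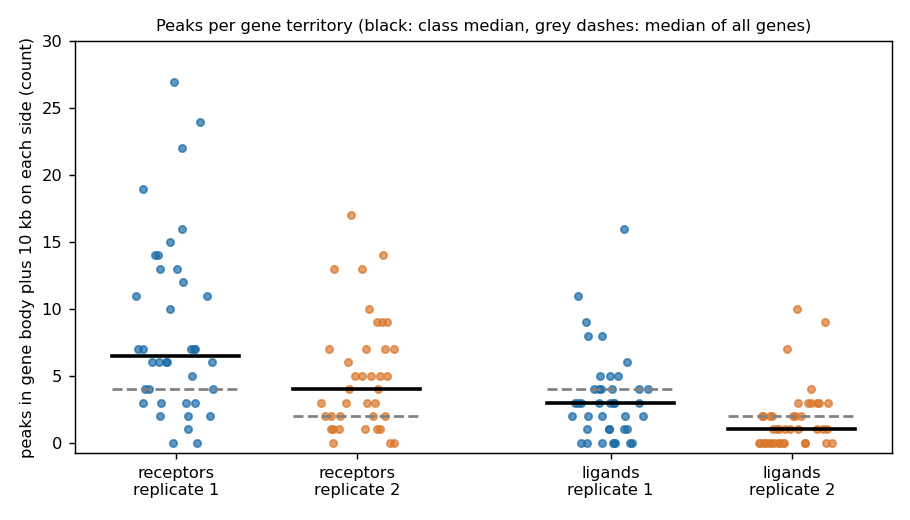
Number of peaks in each gene's territory by class and library, 1 point per gene, with the class median as a black line and the median of all genes as grey dashes. The receptor medians (6.5 and 4) lie above the dashes (4 and 2), the ligand medians (3 and 1) below them, and the highest points belong to Il21r and Il4ra.

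The genes with the most territory peaks were Il21r (27 and 17 peaks, 22.0 ± 7.07, SD, n = 2), Il4ra (24 and 14, 19.0 ± 7.07) and Il11ra1 (22 and 13). The Il11ra1 model overlaps other genes, whose peaks are counted in it. Il3ra followed with 14 and 13, Il17ra with 16 and 10, Il9r with 19 and 5, and Il12rb1 with 15 and 9. The Il9r territory includes the Snrnp25 promoter (25.3 and 17.0), and its counts had the widest spread of these genes (SD 9.90, n = 2). Many of its replicate 1 entries stood at the bottom of the list. They had densities from 0.0741 to 0.196 (percentiles 0.0737 to 5.25) and no counterpart in replicate 2, so its count there rests in part on very weak entries. Il6ra (14 and 9) and Il16 (16 and 7) tied for the next place, and Il16 had the highest mean of the ligand class (11.5 ± 6.36). Its densest sites lay close together inside the gene, at 9.45 and 10.9, 7.34 and 6.98, 5.05 and 5.83, and 4.12 and 6.03.

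At the other end, 10 genes had no territory peak in either library, against 16.6% of all genes, and 69 and 61 of the 79 had at least 1. Genes without any were 17.5% and 26.0% of all in the single libraries. The 10 were the receptors Il11ra2 and Il13ra2 and the ligand-class genes Il1b, Il1f5, Il1f6, Il1f8, Il17f, Il18bp, Il20 and Il22. Other cytokines of the same families had territory peaks, among them Il1a (5 and 2), Il24 (4 and 2) and Il33 (1 and 1). None of the words of 31 bases from the Il13ra2 promoter was repeated in the genome, unlike those of Il11ra2.

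Territories of the 79 genes held 448 and 251 listed peaks, each counted once, of which 10 and 9 were shared by neighbouring members. Some entries of the same list overlap each other, as at Il3ra, Il4ra and Il12a in replicate 1. These totals and the counts per territory are therefore counts of list entries and not of separate sites. Of these, 198 and 111 lay inside a member, 100 and 35 in intergenic flanks, 72 and 55 at a member's promoter, 47 and 33 at the promoter of another gene and 31 and 17 inside another gene. A peak of the other library overlapped 49.3% of the peaks of replicate 1 and 88.0% of those of replicate 2, close to the 46.9% and 88.8% of the whole lists. At member promoters, 54 of 72 and 52 of 55 peaks had such a counterpart, beside 30 of 47 and 30 of 33 at promoters of other genes. The share over promoter peaks of all genes is not given here, so these counts have no like background. The densest sites in several territories belonged to neighbours: the Pan2 promoter near Il23a (47.8 and 34.8) and the Ckap2l promoter near Il1a (32.8 and 19.5) outranked every site assigned to those cytokines.

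Il4ra and Il21r are neighbours on chromosome 7, and their joint locus had the most peaks of any cluster of members: 51 in replicate 1 and 31 in replicate 2, of which 30 had a counterpart in each direction. Counted from the Il4ra start, the site at 29.5 kb, between the genes, had 13.9 in replicate 1 and 2.91 in replicate 2 (percentiles 95.5 and 77.9). Sites at 4.87, 53.8, 78.5, 83.6 and 84.5 kb had densities of 12.7, 20.5, 9.46, 15.0 and 9.72 in replicate 1. In replicate 2 the same sites had 18.5, 9.54, 12.5, 19.9 and 13.2. The site inside Il21r at 53.8 kb was the densest of the locus in replicate 1 and the flank site at 83.6 kb the densest in replicate 2. Both genes' own promoters were less dense than several of these sites in replicate 2.

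**Figure D4:**
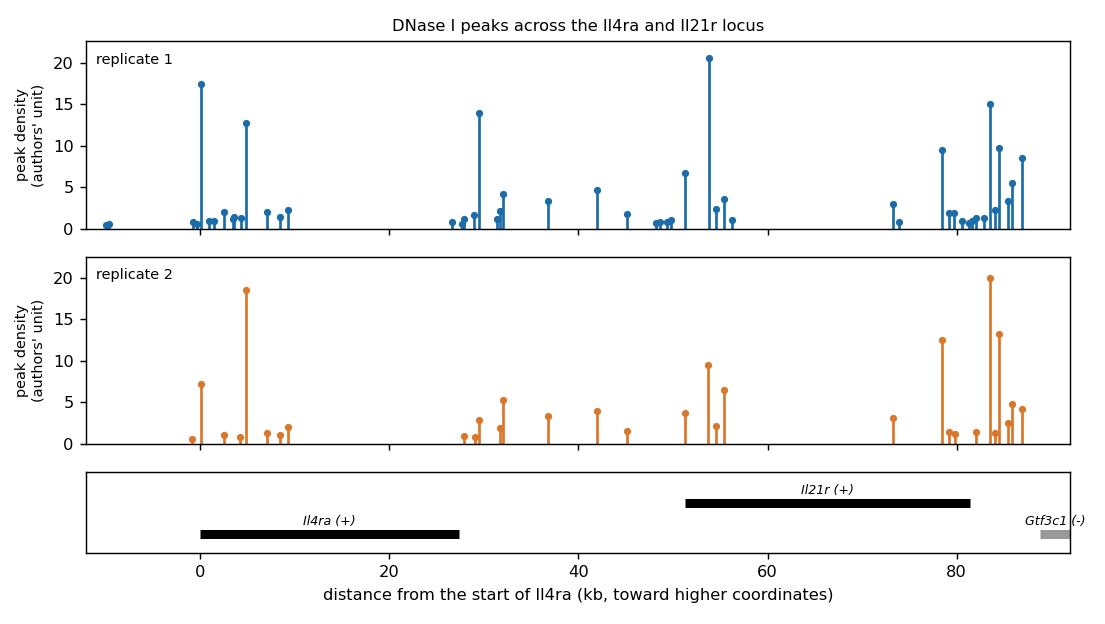
Peak density (authors' unit) across the Il4ra and Il21r locus against distance from the Il4ra start (kb), replicate 1 above and replicate 2 below, with gene bodies at the bottom. The 30 peaks of each library with a counterpart lie at the Il4ra promoter and inside that gene, in the gap between the genes, at the Il21r start, and at its 3′ end and flank; 21 of the 51 peaks of replicate 1 have none.

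The locus of the type 2 cytokines Il4, Il13 and Il5 gave little in comparison. From 10 kb before Il4 to 10 kb past Il5 there were 13 and 4 peaks, those at the start of Rad50 included, and Il4 and Il13 had no territory peak in replicate 2 (3 and 5 in replicate 1). The densest peak of this stretch was at the start of Rad50 (17.8 and 9.67), the DNA repair gene between Il13 and Il5. On the other side of Il4, beyond the stretch counted, the start of the kinesin gene Kif3a had 14.0 and 5.67. Sites beyond the Il5 gene, 117.1, 118.5 and 119.1 kb from the Il4 start, had 4.16, 5.57 and 4.63 in replicate 1 and 1.52, 0.798 and 0.852 in replicate 2. They are outside the Il5 territory.

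The densest intergenic site between Il4 and Il13 was seen as a peak in replicate 1 alone, with a density of 4.02 (percentile 83.9). It is printed because Il4 and Il13 had no other site of this density, and it was chosen after its values were seen. It lies at chr11:53628001-53628140 (− strand), 9.40 kb upstream of the Il4 start. No base was in footprints of both libraries, so it has no capitals.
Il4 and Il13 intergenic site: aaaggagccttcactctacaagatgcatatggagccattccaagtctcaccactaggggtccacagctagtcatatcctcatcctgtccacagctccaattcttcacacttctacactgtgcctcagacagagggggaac

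In replicate 2 this stretch held 38 bases with a false discovery rate below 0.05, the lowest 0.0282, but no peak. Such sites were not rare: of 123 member-territory peaks of replicate 1 at or above the 75th percentile, 9 (7.32%) had no peak in replicate 2, as did 7.53% of such peaks in the whole list. Of the 9, the site near Il17c held 200 significant bases in replicate 2 (lowest 2.52e-52) and 1 near Il27 held 220 (6.14e-19). The Il6st site held 16 (0.0474). A second Il27 site and those of Il12rb1, Il11ra1, Il20ra and Il18rap held none. The other way round it was 1 of 69 (1.45%, whole list 0.635%), near Il11ra1, with 100 significant bases in replicate 1 (lowest 2.155e-55). A missing list entry was thus not always missing signal. Read depth, list length and a difference between the animals cannot be told apart here.

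**Figure D5:**
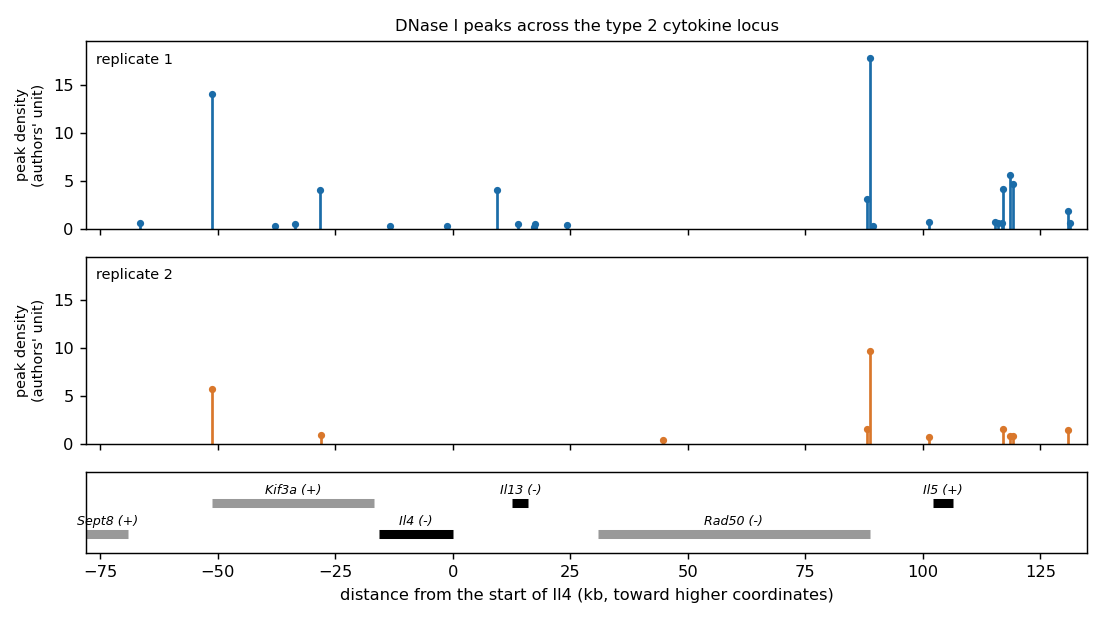
Peak density (authors' unit) across the Il4, Il13 and Il5 locus against distance from the Il4 start (kb), replicate 1 above and replicate 2 below, with gene bodies at the bottom and members in black. The Kif3a and Rad50 starts dominate in both animals, and the site at 9.40 kb has a peak of 4.02 in replicate 1 and none in replicate 2.

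Other clusters held receptor genes or ligand genes together. The receptor cluster of chromosome 1, between Il1r2 and Il18rap, held 6 members in 478 kb with 31 and 17 peaks and 3 genes open in both. The ligand cluster of chromosome 2, from Il1f8 to Il1rn, held 6 members in 198 kb with 6 and 1 peaks and no open promoter. The Il12rb2 and Il23r pair had 24 and 10 peaks, Il22ra2 and Il20ra 19 and 6, and Il6st and Il31ra 14 and 12. The pairs Il17a and Il17f (1 and 0) and Il1a and Il1b (5 and 2) had the fewest. Some sites stood at unlike percentiles of lists that differ in length. A shared site of Il17re and Il17rc had 10.2 and 1.90 (percentiles 93.4 and 69.9), an Il1r2 site 5.37 and 0.810 (87.5 and 44.95), and a flank site of Il3 5.04 and 0.828 (86.8 and 45.8).

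The motif words gave these shares in 200 bp windows centred on peaks, with each word searched on both strands and counted once per window, and words allowed to overlap each other. Among windows at gene starts in member territories (119 and 88), the RUNX word TGTGGT was in 16.8% and 12.5%, against 8.99% and 7.86% of all start windows. The TCF and LEF word CTTTGA was in 16.0% and 11.4%, against 7.83% and 6.74%. The ETS word CCGGAAGT was in 1 window in each library (0.840% and 1.14%), against 4.07% and 5.41%. The GATA word AGATAA was in 6 and 5 windows (5.04% and 5.68%), against 3.23% and 2.35%. The NFAT-type word GGAAAAT was in no window, against 1.62% and 1.29%. CAGCTG was in 18.49% and 12.5%, against 12.24% and 12.45%. TGANTCA, the AP-1 word, was in 3.36% and 5.68%, against 3.11% and 2.68%. TTCNNNGAA, the STAT word, was in 2.52% and 3.41%, against 3.79% and 3.6%. Against all start windows, ETS, NFAT-type and STAT words were thus less frequent in both lists, and RUNX, TCF, GATA, AP-1 and E-box words more frequent. For STAT, AP-1 and E-box words, 1 list stood near its background. The ETS, GATA and NFAT-type shares rest on few windows. Both lists largely cover the same bases, since 52 of 55 member promoter peaks of replicate 2 overlapped a peak of replicate 1. All words were read from the same assembly, so the lists are not independent here. Of the windows, 72 and 55 were at a member's promoter and 47 and 33 at promoters of other genes. The shares mix both kinds and are not those of member promoters alone. Member promoters were poorer in CpG, as given above, and the CpG content of the other promoters is not given here. The part of base composition in these shares was not tested.

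Away from promoters (329 and 163 windows) some shares were near those of the whole list and others were not. TGTGGT was in 22.2% and 28.2%, against 21.7% and 23.2%. The ETS word CCGGAAGT was in 7 and 6 windows (2.13% and 3.68%), against 0.762% and 1.13%, so it was more frequent here than in the whole list and less frequent at starts. The STAT word TTCNNNGAA, the kind of element that STAT factors bind, was in 6.69% and 6.75%, against 5.34% and 5.16%. The GATA word AGATAA was in 4.3% and 5.52%, against 7.36% and 7.1%, and the CTCF motif in 3.65% and 3.07%, against 6.52% and 5.46%. The AP-1 word TGANTCA was in 6.69% and 8.59%, against 6.7% and 6.57%. These are shares over small numbers of windows, some of them neighbours, and are given as a description.

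Signalling partners were open in a larger share than the receptor class, but not among CpG-poor promoters. Of 35 listed kinases, STAT factors, adaptors, inhibitors and related cytokine genes, 28 and 26 had a promoter peak and 25 (71.4%) were open in both. Of the partners, 15 were CpG-rich (42.9%, against 18.4% of the receptor class), and all 15 were open in both. Among CpG-poor promoters, 10 of 20 partners (50%) were open in both, beside 16 of 31 receptor genes (51.6%). All 4 Janus kinases were open in both, with Jak1 at 24.4 and 9.81 and Jak3, the kinase of the common gamma chain, lowest at 2.84 and 2.71. Of the 7 STAT genes, 6 were open, with Stat3 at 43.95 and 13.5 and Stat4, the effector of IL-12, closed at its 5′ end but with 15 and 8 territory peaks. The feedback inhibitor Socs1 had 32.4 and 19.9. Partners closed in both were Stat4, Tollip, Csf2rb2, Lifr and the ligands Tslp and Lif. The median density of their open promoters, 10.1 and 5.37, was close to that of all open genes (9.43 and 5.56), unlike that of the receptors (3.01 and 2.06).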

How the data were processed

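DNase-seq was deposited for thymus of 2 female B6CASTF1/J mice aged 25 days, 1 library each. Replicate numbers are those of the labels. Per the deposited notes, peaks, false discovery rates and footprints were derived from each library's own filtered alignment to mm10, so replicates were not pooled; for the aligner, the callers and the treatment of reads with several matches, names and settings were not given in the sources used here. The density in the deposited peak lists is a signal made by the authors on an unstated scaling, and it served only to order peaks of the same list. The deposited false discovery rates are q-values per run of bases, listed only below 0.05. The deposited footprints carry the same number in every line, so their positions alone were used. Read depth is unknown.

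The longer of both peak lists of a library was used, with GENCODE M21 gene models on GRCm38 (the build of mm10). Promoters were 1 kb on each side of the gene's 5′ end, territories the whole gene plus 10 kb at either end, and overlap needed 1 bp. Sequence was read from the mm10 assembly. With 1 group of 2 libraries there was no test; lists are described by counts and medians beside all protein-coding genes. The overlap code differed from bedtools at 0 of 21938 windows. In a simulation 5000 of 5000 promoters were recovered, but each simulated peak was placed inside the promoter that was searched. That checks the code alone and does not bear on the open and closed calls. Python 3.11.15, numpy 2.4.6, pandas 2.3.3 and matplotlib 3.10.9 were used.

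The genes and lists were chosen with earlier results of these data known. Named by rule were the 12 receptor-class and 8 ligand-class genes with the highest mean promoter percentile, the 8 genes with the most territory peaks (9 with a tie), genes open in 1 library, and genes without a territory peak. The highest-ranking sites for sequences, at most 1 per gene, were also named by rule. A site that this rule names is not reported here. Other members are named for their role, after their values were seen. Alternatives were the shorter list, the denser 50% of peaks, promoters of 500 bp and 2 kb, gene bodies alone or with 50 kb, each replicate left out, peaks at other genes' starts left out, peak midpoints in place of overlap, footprints inside peaks only, any annotated start, and classes by function. Leaving out genes that share a start was added after seeing the data.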

Additional observations from a re-analysis of the deposited data

How the results depend on the processing

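Recomputing the counts and medians by class under each alternative gave 61 values, of which 10 moved by more than the spread between the libraries or 1.5 times. The other 51 stayed within these bounds, which are wide for small numbers. The median number of territory peaks of receptor genes (5.25) was 3 with the shorter deposited list, 2.5 with the denser 50% of peaks, 3 with the gene body alone and 14.25 with 50 kb on each side. That of ligand genes (2) was 1 with the shorter list or in replicate 2 alone, 0.5 with the denser peaks, 0 with the gene body alone and 6.5 with 50 kb. Fewer peaks or a changed window make these shifts by construction. Ligand genes open in both libraries numbered 12, 8 with the shorter list or with promoters of 500 bp, and 4 with the denser 50% of peaks. Ligand genes with a promoter footprint in both numbered 9, 5 with promoters of 500 bp, and between 9 and 14 when 1 replicate was left out, with 14 in replicate 1 alone. The receptor value stayed above the ligand value under each alternative run for both classes. Leaving out genes that share a start, an alternative chosen after seeing the data, gave 22 of 37 receptor and 10 of 37 ligand genes. No paired analysis was possible because there is 1 group. Signal near the lower end of the shorter list of replicate 2 limits what its absent peaks show.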

Other observations

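The territory of Ebi3, which encodes a chain of IL-27 and was listed among the signalling partners, held 6 peaks in replicate 1 and 28 in replicate 2, although the list of replicate 2 is shorter. Its promoter had no peak in replicate 1 and 3 in replicate 2, the densest 0.378. Crlf2, the receptor chain for TSLP, held 17 and 2 territory peaks, with an open promoter in both libraries (8.305 and 5.42).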
